A study of Mus musculus with 6 samples.

Results

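The ADAMTS proteases examined here are 10 secreted enzymes whose genes, Adamts1, Adamts2, Adamts4, Adamts5, Adamts7, Adamts8, Adamts9, Adamts10, Adamts12 and Adamts15, were taken by name from a table of 54532 mouse genes. All 10 were found, and all 10 passed the filter on low counts that left 16237 genes for testing. The table holds RNA sequencing counts of abdominal aorta collected 7 days after an aneurysm was induced, from 3 Olfr2 KO libraries and 3 WT libraries. Olfr2 encodes an olfactory receptor, and both genotypes had undergone the induction. The sources used here do not give the method of induction, the strain, the age of the mice, how the Olfr2 allele was made or how many animals each library holds, and p-values therefore measure the spread between these libraries.

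ADAMTS stands for a disintegrin and metalloproteinase with thrombospondin motifs. These enzymes are made as precursors, and most lose their prodomain to furin-like convertases. With the help of a zinc ion, members of the family cut matrix proteins around vascular and connective tissue cells. Adamts1, Adamts4, Adamts5, Adamts8, Adamts9 and Adamts15 are grouped as enzymes that cut large aggregating proteoglycans such as versican and aggrecan. Adamts2 removes the amino-terminal propeptide of fibrillar procollagens, Adamts7 and Adamts12 cut the cartilage oligomeric matrix protein Comp, and Adamts10 is tied to fibrillin microfibrils. In the aorta, versican fills the space between elastic layers and fibrillin scaffolds the elastic fibres, so members of the family act on both.

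The shared active site is shown for the 4 members with an unadjusted p under 0.05 and for the genomic neighbours of 2 of them. Each line is the 36-base coding stretch of the zinc-binding site, read from GENCODE release 21 transcripts (mouse, GRCm38). Capitals mark the codons of the 3 zinc-binding histidines and of the catalytic glutamate.
Adamts8: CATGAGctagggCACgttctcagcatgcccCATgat
Adamts15: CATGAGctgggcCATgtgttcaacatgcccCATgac
Adamts1: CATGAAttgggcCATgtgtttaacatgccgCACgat
Adamts5: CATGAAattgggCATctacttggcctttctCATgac
Adamts7: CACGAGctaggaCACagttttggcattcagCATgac
Adamts10: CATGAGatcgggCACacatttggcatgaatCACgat

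Over these 36 bases Adamts8 and Adamts15 were identical at 29 positions and Adamts1 and Adamts5 at 22. In all 10 genes an exon junction interrupts the stretch, and its place splits these 10 into sets of 5. The junction follows base 10 in Adamts1, Adamts4, Adamts5, Adamts8 and Adamts15, and base 17 in Adamts2, Adamts7, Adamts9, Adamts10 and Adamts12. In Adamts8 the stretch runs from exon 3 into exon 4 (chr9:30952721-30953381 with the intron, plus strand, in a transcript of 9 exons), and in Adamts7 from exon 7 into exon 8 (chr9:90179456-90180643, plus strand, in a transcript of 24 exons). Despite this likeness, 0 of the 50-base words in any member's annotated transcripts occurred in another ADAMTS gene.

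Several members lie side by side. Adamts15 (ENSMUSG00000033453, chromosome 9, 30899155 to 30922452, minus strand) and Adamts8 (ENSMUSG00000031994, chromosome 9, 30942562 to 30963838, plus strand) are 20.1 kb apart and point away from each other, with 0 protein-coding genes between them. Adamts1 (ENSMUSG00000022893, chromosome 16, 85793827 to 85803113) and Adamts5 (ENSMUSG00000022894, chromosome 16, 85856173 to 85901828) are both on the minus strand, 53.1 kb apart, again with 0 protein-coding genes between them. All 10 are annotated as protein-coding.

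Every member was present in every library, at 72 to 9604 counts. Library totals were 17248918 to 21872027 counts in KO and 17388340 to 17987404 in WT. Olfr2 itself had 0 counts in all 6 libraries, which allows up to 0.14 to 0.172 CPM in KO and 0.163 to 0.182 CPM in WT (CPM, counts scaled to a common library total; the limit is 3 counts and covers counting error only), so it does not check the genotype labels. The smooth muscle markers that define the aortic wall were all present. Their summed level, over 10 genes, was 2666, 1736 and 2227 CPM in KO replicates 1 to 3, against 1190, 1531 and 1054 CPM in WT replicates 1 to 3, so the KO libraries lay above the WT libraries. White adipocyte markers (8 of 8 genes present in all libraries) summed to 756 to 1428 CPM in KO and 155 to 1059 CPM in WT, where replicate 3 was high. Skeletal muscle markers summed to 1092 CPM in KO replicate 3 and at most 19.1 CPM in the other libraries, where 0 to 2 of 7 markers were at 0. T cell markers summed to 122 to 132 CPM in KO and 184 to 222 CPM in WT, without overlap, and fibroblast markers to 2192 to 2271 CPM in KO and 2191 to 2339 CPM in WT. Brown adipocyte markers summed to 9.98, 66.04 and 12.4 CPM in KO, against 0.38, 0.788 and 8.63 CPM in WT, and the mitochondrial share of counts was 5.32, 2.59 and 2.32% in KO, against 1.84, 1.88 and 1.56% in WT, both without overlap. The part of these differences in the results on the proteases was not tested. In whole tissue, fewer cells of a type and less RNA per cell cannot be told apart.

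Per kilobase of exon, the procollagen processing enzyme Adamts2 was the most abundant member, at 39.9 ± 7.93 RPKM in KO and 46 ± 5.79 RPKM in WT (RPKM, CPM divided by exon length in kilobases; SD, n = 3 each). Adamts1 followed with 26.9 ± 9.77 RPKM in KO and 17.4 ± 3.07 RPKM in WT, and Adamts10 with 15.7 ± 0.5 RPKM in KO and 13.3 ± 0.414 RPKM in WT (SD, n = 3 each). Adamts2 exceeded Adamts1, and Adamts1 exceeded Adamts10, in 6 of 6 libraries. Below them came Adamts15, Adamts4, Adamts12, Adamts5, Adamts7, Adamts8 and Adamts9, with means over all 6 libraries between 9.67 and 2.15 RPKM. Adamts12 lay above Adamts5 in 6 of 6 libraries, but the other neighbours in that order changed places in 1 to 3 libraries, and Adamts5 and Adamts7 exchanged ranks in 3 of 6.

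**Figure D1:**
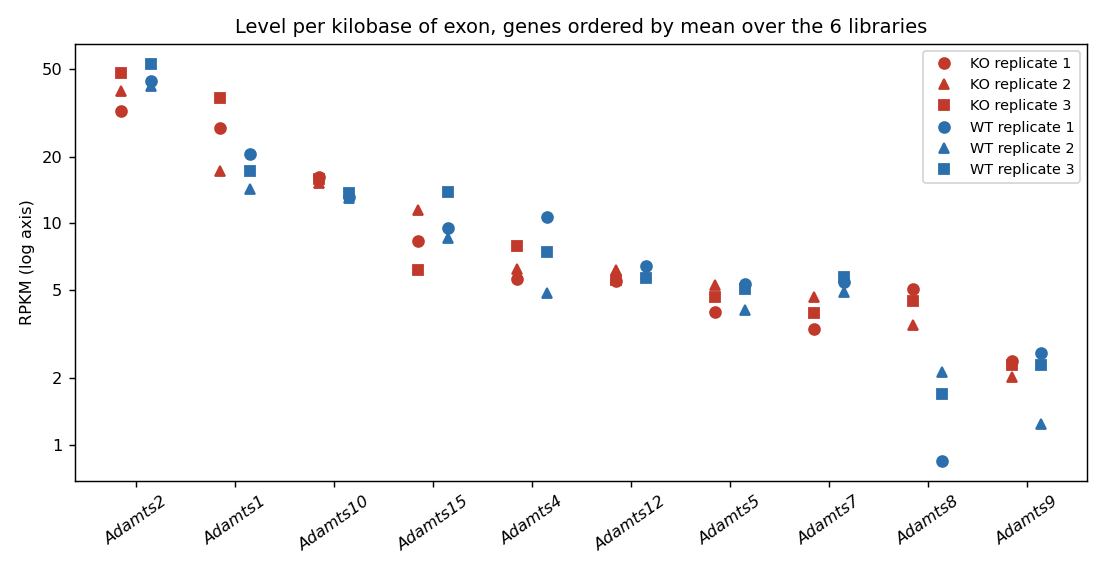
Level of each ADAMTS protease transcript in RPKM (log axis) in the 6 libraries, KO in red to the left of WT in blue, with genes ordered by their mean over all libraries. Adamts2 stands highest at 32.1 to 52.5 RPKM, and Adamts8 is the gene whose KO and WT points lie furthest apart on the log axis.

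Summed over the 10 members, the level was 109, 111 and 135 RPKM in KO replicates 1 to 3, against 118, 101 and 125 RPKM in WT replicates 1 to 3, and these ranges overlap. Adamts2 made up 29.4, 35.6 and 35.4% of that sum in KO, against 37, 41.3 and 42% in WT. Adamts8 made up 4.62, 3.13 and 3.3% in KO, against 0.717, 2.13 and 1.36% in WT.

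KO was compared with WT gene by gene to ask which protease transcripts differ in aneurysm tissue without Olfr2. Of the 10 members, 0 passed at an adjusted p under 0.05 (edgeR, quasi-likelihood, Benjamini-Hochberg adjusted across the 16237 genes), where 0.0123% of all tested genes passed. At an unadjusted p under 0.05 there were 4 members, against 11.3% of all tested genes. Adamts8, Adamts1 and Adamts10 were 3 members with higher means in KO, where the share of all genes was 5.23%, and Adamts7 was the 1 with a lower mean, where it was 6.08%. The genotypes were fully separated for 3 members, Adamts8, Adamts10 and Adamts7, against 16.8% of all tested genes. The median log2 fold change of the members was -0.06, beside 0.01 over all tested genes, with a range from -0.43 to 1.47. By DESeq2 1 member, Adamts8, was called, where 451 of 16237 tested genes were. By limma-voom 0 members and 0 genes were called.

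**Figure D2:**
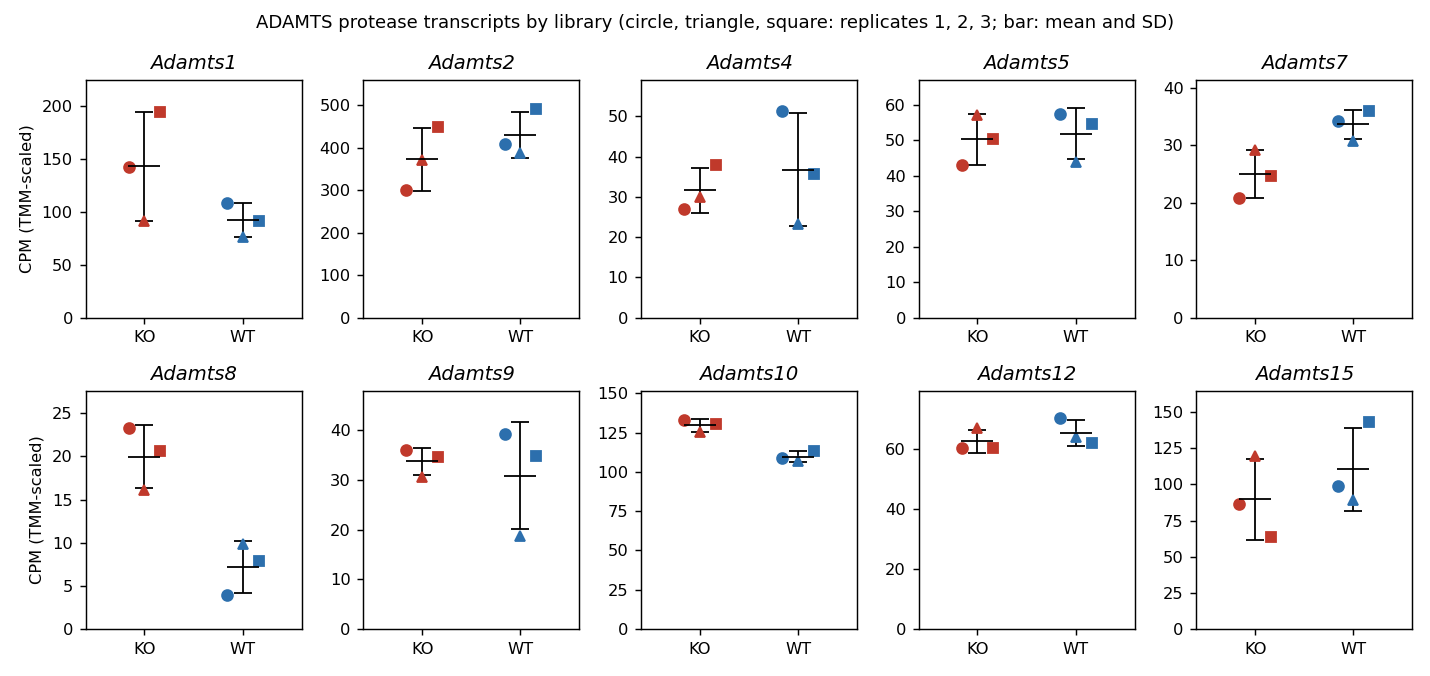
CPM of each ADAMTS protease in KO (red) and WT (blue) libraries, with replicates 1 to 3 as circle, triangle and square and bars for mean and SD. All 3 KO points lie above all 3 WT points for Adamts8 and Adamts10, and below them for Adamts7, while the groups overlap for the other 7 genes.

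Adamts8, a proteoglycan-cutting member whose human counterpart is known as an inhibitor of endothelial cell growth, showed the largest fold difference of the 10. It stood at 23.3, 16.1 and 20.6 CPM in KO replicates 1 to 3, against 3.91, 9.88 and 7.83 CPM in WT replicates 1 to 3. The lowest KO library was above the highest WT library, and WT replicate 1 was the lowest of all. The log2 fold change was 1.47 (SE 0.30, 95% interval 0.78 to 2.16), which is 2.78-fold higher in KO, with an adjusted p of 0.126 by edgeR's quasi-likelihood test.

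With each library left out in turn the log2 fold change of Adamts8 lay between 1.17, without WT replicate 1, and 1.77, without WT replicate 2. Its unadjusted p stayed under 0.05 in all 14 alternative analyses, and its adjusted p ranged from 0.000117 to 0.326. DESeq2 called it with an adjusted p of 0.000158, and edgeR without a filter on low counts with 0.000117. Over all tested genes these runs called 451 of 16237 and 644 of 29498. Of its exon bases 10.6% overlap Gm29724, which had 8 to 14 counts in KO and 1 to 2 in WT, beside 314 to 442 and 72 to 163 counts for Adamts8 itself.

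Among the KO libraries, Adamts8 and the summed smooth muscle markers were both highest in replicate 1 and lowest in replicate 2. Among the WT libraries both were highest in replicate 2, but Adamts8 was lowest in replicate 1 and the marker sum in replicate 3. Some smooth muscle markers differed by about as much as Adamts8. The log2 fold changes were 1.42 for the smooth muscle myosin Myh11, 1.42 for Cnn1 and 1.5 for the transcriptional coactivator Myocd. The others differed less, with 1.01 for Lmod1, 0.79 for Synpo2 and 0.78 for Acta2, the largest part of the sum. Smtn had 0.60, Tagln 0.57, Des 0.43 and Actg2 -0.08, and the median of the 10 markers was 0.78. For each 1000 CPM of summed smooth muscle markers there were 8.74, 9.25 and 9.25 CPM of Adamts8 in KO, against 3.29, 6.46 and 7.42 CPM in WT, without overlap. Set against each of the 10 markers alone, the Adamts8 ratio was higher in every KO library than in any WT library for 6 markers. It overlapped for 4, Myh11, Cnn1, Myocd and Synpo2. Tagln is among the 6, but 67.9% of its exon bases overlap Gm48529 and Pcsk7, and it had only 75 to 181 counts. Per count of Myh11 there were 0.0832, 0.0863 and 0.0716 counts of Adamts8 in KO, against 0.0419, 0.12 and 0.0731 in WT. These ratios were chosen after their parts had been seen, and the part of smooth muscle content in the difference was not tested.

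Adamts15, the versican-cutting neighbour of Adamts8 on chromosome 9, did not share its direction. It stood at 86.4, 119.5 and 63.6 CPM in KO, against 99.2, 89.4 and 143 CPM in WT, with a log2 fold change of -0.30 (SE 0.24, 95% interval -0.85 to 0.25, adjusted p = 0.723 by edgeR). The groups overlapped, with the lowest value in KO replicate 3 and the highest in WT replicate 3. With single libraries left out the log2 fold change ranged from -0.56 without KO replicate 2, where the unadjusted p was 0.0435, to -0.07 without WT replicate 3, and it was -0.10 without KO replicate 3. Counts of Adamts8 per count of Adamts15, a ratio within each library that no scaling can change, were 0.27, 0.134 and 0.324 in KO, against 0.0395, 0.111 and 0.0548 in WT. The lowest KO ratio was above the highest WT ratio, and the mean log2 ratios were -2.14 ± 0.67 in KO and -4.01 ± 0.76 in WT (SD; p = 0.1 by a two-sided exact permutation test, whose floor is 0.1 with 3 libraries against 3). Both count ratios of neighbours were likewise computed after the single genes had been seen.

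Adamts1, which cuts versican and the nidogens of basement membranes, stood at 142, 91.2 and 195 CPM in KO, against 109, 76.2 and 91.2 CPM in WT. KO replicates 1 and 3 were above every WT library, but KO replicate 2 was within the WT range. The log2 fold change was 0.63 (SE 0.25, 95% interval 0.07 to 1.20, adjusted p = 0.380 by edgeR). Without KO replicate 3 it was 0.34, without WT replicate 2 it was 0.51, and without KO replicate 2 it was 0.88. KO replicate 3 is also the library with skeletal muscle transcripts, a relation that was not tested. The unadjusted p of Adamts1 was over 0.05 when KO replicate 1 or 3, or WT replicate 2 or 3, was left out. Without a filter on low counts edgeR called Adamts1, with an adjusted p of 0.0473, where 644 of 29498 tested genes were called.

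Adamts5, the neighbour of Adamts1 and a main aggrecan- and versican-cutting enzyme, stood at 43, 57.1 and 50.4 CPM in KO, against 57.3, 43.7 and 54.5 CPM in WT. The groups overlapped almost fully, with a log2 fold change of -0.05 (95% interval -0.38 to 0.28). The ratio of Adamts1 to Adamts5 counts was 3.32, 1.6 and 3.86 in KO and 1.9, 1.74 and 1.68 in WT, so KO replicate 2 lay below all WT libraries and the other KO libraries above them (p = 0.4 by a two-sided exact permutation test).

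Adamts10, tied to fibrillin microfibrils, had the smallest spread relative to its mean within each genotype. It stood at 133, 125 and 131 CPM in KO, against 109, 107 and 114 CPM in WT. The groups did not overlap, but the difference was small, with a log2 fold change of 0.24 (SE 0.10, 95% interval 0.02 to 0.46, adjusted p = 0.388 by edgeR), which is 1.18-fold. Over the 14 alternatives it lay between 0.22 and 0.28, with an unadjusted p under 0.05 in 6 of them and above it whenever any of the 6 libraries was left out.

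Adamts7, which cuts Comp and thrombospondin-1, was the member with the lowest fold change. It stood at 20.9, 29.2 and 24.7 CPM in KO, against 34.1, 30.8 and 35.9 CPM in WT, and every KO library was below every WT library. The log2 fold change was -0.43 (SE 0.15, 95% interval -0.76 to -0.10, adjusted p = 0.311 by edgeR), a ratio of 0.742. Its unadjusted p stayed under 0.05 in 12 of 14 alternatives, the exceptions being without KO replicate 1 and without WT replicate 3. Adamts12, its closest relative in substrate, stood at 60.3, 67.1 and 60.4 CPM in KO, against 70.3, 64.1 and 61.9 CPM in WT, and these groups overlapped. Its log2 fold change of -0.06 had a 95% interval of -0.30 to 0.17, and leaving out KO replicate 2 gave -0.11 and leaving out WT replicate 1 gave -0.01.

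The remaining members, Adamts2, Adamts4 and Adamts9, overlapped between genotypes. Adamts2 stood at 299.7, 369.8 and 447.7 CPM in KO, against 409, 388 and 490.3 CPM in WT, with a log2 fold change of -0.20 (95% interval -0.59 to 0.18). That value was -0.07 without KO replicate 1, -0.10 without WT replicate 3 and -0.36 without KO replicate 3. Adamts4, a cytokine-inducible aggrecan-cutting enzyme, stood at 27.1, 30.03 and 37.9 CPM in KO, against 51.3, 23.2 and 35.7 CPM in WT. Both its highest and its lowest value were therefore in WT, and its 95% interval was -0.80 to 0.37. Adamts9, which cuts versican, stood at 36, 30.6 and 34.5 CPM in KO, against 39.1, 18.7 and 34.7 CPM in WT, with WT replicate 2 apart from the other libraries and a 95% interval of -0.41 to 0.66. Of the exon bases of Adamts9 12% overlap the annotated transcripts A730049H05Rik and Gm15737, and of those of Adamts7 1.94% overlap Tbc1d2b.

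**Figure D3:**
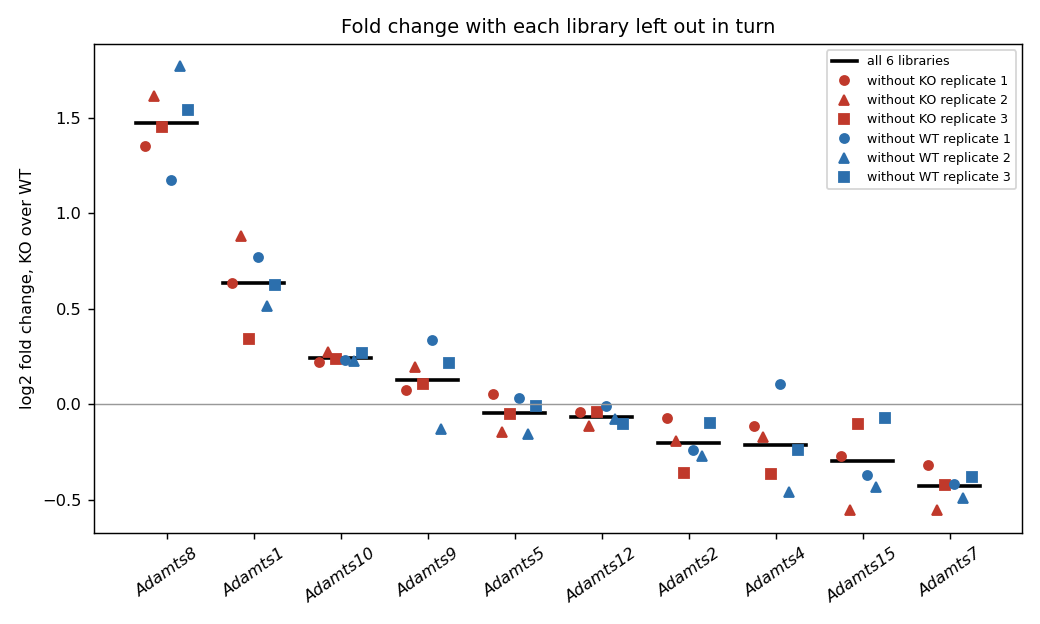
Log2 fold change (KO over WT) of each ADAMTS protease with all 6 libraries (black bar) and with each library left out (red, a KO library; blue, a WT library). Adamts8 stays between 1.17 and 1.77 and Adamts10 between 0.22 and 0.27, while Adamts4, Adamts5 and Adamts9 cross 0.

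The rest of the family was examined from lists of its other proteases and of the ADAMTS-like proteins, which share the thrombospondin modules but have no protease domain. Of 9 other ADAMTS proteases 7 were tested, 0 passed by edgeR at an adjusted p under 0.05, and 1, Adamts16, had an unadjusted p under 0.05, a share of 14.3% beside 11.3% over all genes, with 0 called by DESeq2 or limma-voom. Adamts16, whose rat counterpart is linked to blood pressure, stood at 5.39, 5.73 and 3.45 CPM in KO, against 9.24, 5.7 and 9.27 CPM in WT, with a log2 fold change of -0.74 (SE 0.27). The groups overlapped by a narrow margin at KO replicate 2 and WT replicate 2, and the unadjusted p was over 0.05 without WT replicate 1 and without WT replicate 3. Adamts6 averaged 28.4 ± 6.03 CPM across the KO libraries and 28.9 ± 7.2 across the WT libraries. The procollagen processing enzyme Adamts14 averaged 19.8 ± 6.02 CPM across the KO libraries and 23.4 ± 2.6 across the WT libraries (SD, n = 3). Adamts3, also a procollagen processing enzyme, had a log2 fold change of -0.04, and Adamts17, Adamts18 and Adamts20 had -0.16, 0.39 and -0.03. Adamts13, the von Willebrand factor protease, had 1 to 10 counts and Adamts19 had 0 to 16, and neither passed the filter.

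Of 7 tested ADAMTS-like genes 0 passed by edgeR at an adjusted p under 0.05 and by limma-voom, and 2 had an unadjusted p under 0.05, a share of 28.6% beside 11.3% over all genes. Both had higher means in KO, where the share over all genes was 5.23%. Thsd4, which promotes fibrillin microfibril assembly, stood at 31.1, 17.3 and 31.9 CPM in KO, against 6.63, 17.5 and 9.09 CPM in WT. KO replicates 1 and 3 were above all WT libraries, and KO replicate 2 was just below WT replicate 2. The fitted difference was 1.28 on the log2 scale (SE 0.36, adjusted p = 0.220 by edgeR). Thsd4 was the 1 gene of this list that DESeq2, or edgeR without a filter on low counts, called. Among all tested genes, DESeq2 called 451 of 16237 and edgeR without that filter 644 of 29498. Adamtsl5, a fibrillin-binding member, stood at 26.7, 19.7 and 23.5 CPM in KO, against 10.7, 19.3 and 18.5 CPM in WT, a log2 fold change of 0.53 (SE 0.23). It was the 1 gene of the 7 whose groups did not overlap, against 16.8% of all tested genes. The other ADAMTS-like genes, Adamtsl1, Adamtsl2, Adamtsl3, Adamtsl4 and Papln, had log2 fold changes from -0.25 to 0.31.

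**Figure D4:**
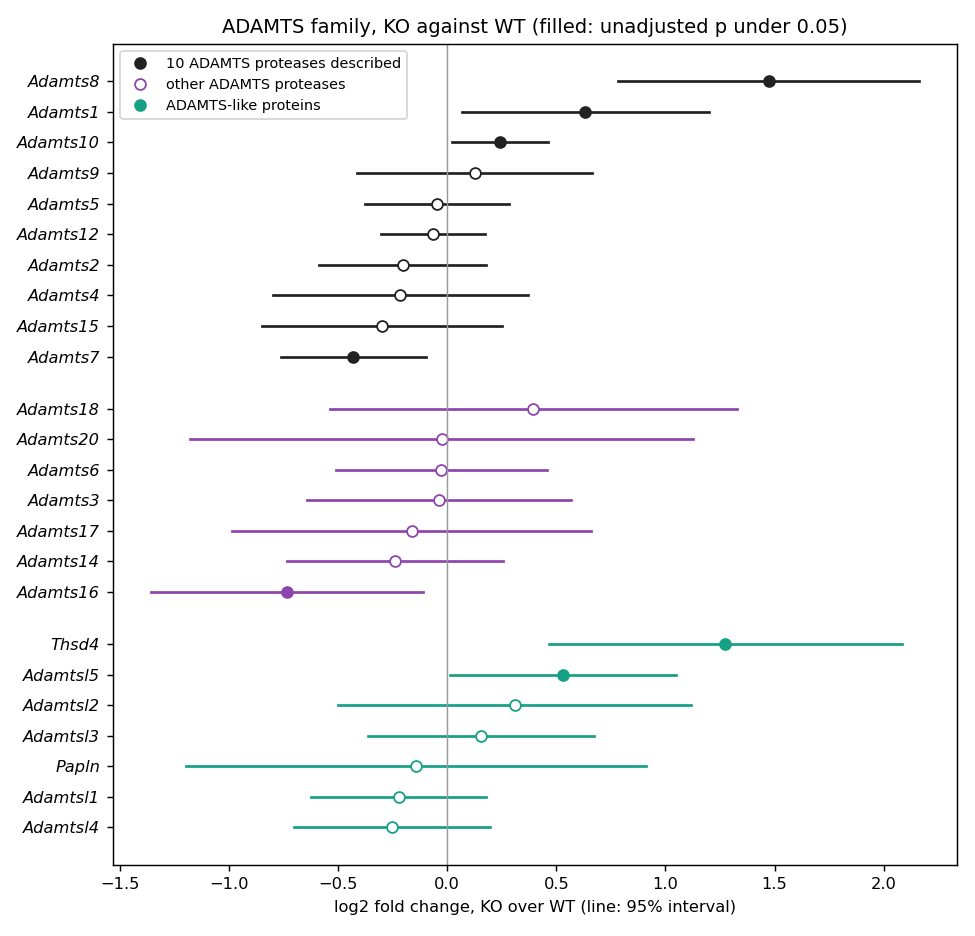
Log2 fold change (KO over WT, point) with its 95% interval (line) for the 10 ADAMTS proteases described, the 7 other ADAMTS proteases tested and the 7 ADAMTS-like genes, with filled points at an unadjusted p under 0.05. Adamts8 at 1.47 and Thsd4 at 1.28 lie furthest to the right, and Adamts16 at -0.74 furthest to the left.

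Genes of the matrix proteins that these enzymes cut were mostly at lower means in KO, by small amounts. Of 19 tested substrate genes 0 passed by edgeR, DESeq2 or limma-voom at an adjusted p under 0.05. A lower mean in KO was found for 16, beside 7930 of all 16237 tested genes. An unadjusted p under 0.05 was found for 2, both lower, a share of 10.5% beside 11.3% over all genes. The groups did not overlap for 3, all lower in KO, against 16.8% of all tested genes. The median log2 fold change of the 19 was -0.19, beside 0.01 over all genes. Nid2, a basement membrane nidogen, stood at 43.5, 64.4 and 59.1 CPM in KO, against 63.9, 68 and 92.7 CPM in WT, with a log2 fold change of -0.43 (SE 0.18) and 1 KO library within the WT range. The collagen V chain gene Col5a1 had -0.39 (SE 0.17), Col1a1 had -0.55 (SE 0.26) and Col1a2 had -0.36 (SE 0.19), all 3 encoding procollagen chains. Thbs2, a thrombospondin, had -0.41 (SE 0.20) and Col5a2 had -0.22 (SE 0.13).

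The proteoglycan substrates overlapped between genotypes. Versican, Vcan, averaged 197 ± 19.8 CPM over the KO libraries and 203 ± 33.7 over the WT libraries (SD, n = 3), with a 95% interval of the log2 fold change from -0.37 to 0.28, and aggrecan, Acan, averaged 31 ± 13.9 CPM over the KO libraries and 26.9 ± 5.61 over the WT libraries (SD, n = 3), with a wider interval from -0.54 to 0.95. Bcan and Ncan, the brain proteoglycans, were below the filter. Fibrillin-1, Fbn1, averaged 682 ± 16.7 CPM over the KO libraries and 733 ± 121 over the WT libraries (SD, n = 3). Comp, the substrate of Adamts7 and Adamts12, had KO values of 124, 60.9 and 44 CPM, against 38.3, 62.3 and 69.4 CPM in WT. KO replicate 1 was above every WT library and the other KO libraries were within the WT range.

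Among 12 genes that activate, inhibit or clear the enzymes 0 passed by edgeR or limma-voom at an adjusted p under 0.05, and 2 had an unadjusted p under 0.05, a share of 16.7% beside 11.3% over all genes. A2m, the protease-trapping alpha-2-macroglobulin, stood at 0.975, 1.33 and 0.373 CPM in KO, against 1.25, 4.49 and 6.1 CPM in WT, with a log2 fold change of -2.14 (SE 0.62). WT replicate 1 lay within the KO range. DESeq2, or edgeR without a filter on low counts, called A2m and 0 other genes of this list. These runs called 451 of 16237 and 644 of 29498 tested genes. Timp4, a tissue inhibitor of metalloproteinases, stood at 6.31, 3.53 and 5.13 CPM in KO, against 0.815, 1.33 and 3.97 CPM in WT, with a log2 fold change of 1.29 (SE 0.52). WT replicate 3 was above KO replicate 2, and the white adipocyte markers were also high in WT replicate 3, a relation that was not tested. Timp3, the main inhibitor of this family, averaged 260 ± 22.8 CPM over the KO libraries and 268 ± 42.7 over the WT libraries (SD, n = 3), with a 95% interval of the log2 fold change from -0.37 to 0.29. For Furin, which removes the prodomain, the log2 fold change was -0.30 (SE 0.14). For Lrp1, the endocytic receptor that clears Adamts4 and Adamts5, it was -0.29 (SE 0.15), with every KO library below every WT library. Lrp1 was the 1 gene of the 12 whose groups did not overlap, against 16.8% of all tested genes. Pcsk6, another convertase, had 0.30 (SE 0.20), and Sdc1, a cell-surface proteoglycan, had -0.14 (SE 0.13).

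**Figure D5:**
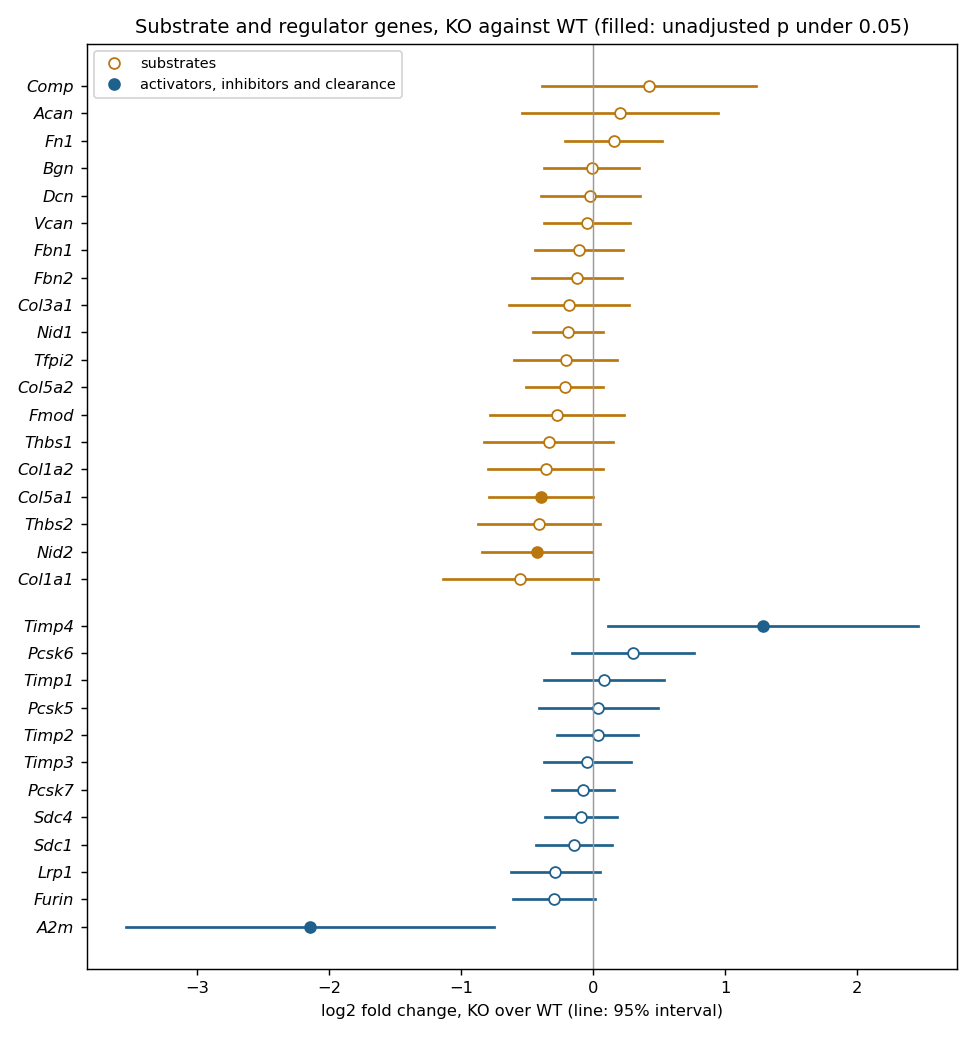
Log2 fold change (KO over WT, point) with its 95% interval (line) for 19 tested substrate genes and for 12 genes of activation, inhibition and clearance, with filled points at an unadjusted p under 0.05. Most substrate genes lie left of 0, and A2m at -2.14 and Timp4 at 1.29 stand at the ends of the other list.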

How the data were processed

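Poly-T bead selected RNA was sequenced from 3 KO and 3 WT libraries, and random hexamers primed the cDNA, per the labels' protocols. The deposited table holds raw read counts per gene, made by the authors. The submitters' processing notes name HISAT2 2.0.5, featureCounts 1.5.0-p3 and the build GRCm38. How strand and multi-mapped reads were handled was not given in the sources used here, so reads of overlapping genes cannot be told apart.

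Counts were tested in R 4.3.3 with edgeR 4.0.16 (filterByExpr by genotype, TMM, quasi-likelihood test, Benjamini-Hochberg over 16237 genes, threshold 0.05). The standard error is the log2 fold change over the square root of F, and intervals are at 95%. CPM uses TMM-scaled totals of the tested genes, and RPKM divides it by exon length from GENCODE release 21, which matched 54495 of 54532 identifiers. Alternatives used other scalings and filters, DESeq2 1.42.0, limma-voom (limma 3.58.1), a block for the replicate number, and leaving out single libraries. Pairs of libraries differed by 25.6 to 81 chi-square per degree of freedom, so none repeats another. The test was tried on simulated counts with the same dispersion for every gene and no differences in tissue content. That setting is unlike these libraries, and no result here rests on it. Figures were drawn with matplotlib 3.10.9.

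The genes and lists were chosen with earlier results of these data known. Named were all 10 members, the other ADAMTS and ADAMTS-like genes with counts, and of the substrates and regulators those with an unadjusted p under 0.05 and up to 4 more by smallest p. Vcan, Acan, Bcan, Ncan, Fbn1, Comp and Timp3 are named outside that rule, for their roles, after their values were seen.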

Additional observations from a re-analysis of the deposited data

How the results depend on the processing

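Over 14 alternatives, 136 of 140 log2 fold changes of the 10 members kept their sign. The 4 exceptions arose where 1 library was left out: Adamts5, at -0.05 with all libraries, ranged from -0.16 to 0.052 and was positive without KO replicate 1 (0.052) and without WT replicate 1 (0.03). Adamts4, at -0.22, ranged from -0.46 to 0.10 and was positive without WT replicate 1. Adamts9, at 0.13, ranged from -0.13 to 0.33 and was negative without WT replicate 2. With 0 members called by edgeR, there were 2 without a filter on low counts (Adamts8 and Adamts1) and 1 by DESeq2 (Adamts8). Members at an unadjusted p under 0.05 numbered 4 of 10, beside 11.3% of all genes, and 1 to 4 with each library left out. There was 1 without KO replicate 1 (8.28% of all genes) or WT replicate 3 (10.7%). There were 2 without KO replicate 3 (9.73%) or WT replicate 2 (8.54%), 3 without WT replicate 1 (13.1%) and 4 without KO replicate 2 (9.92%). Over all genes edgeR called 2, against 644 without a filter, 451 by DESeq2, 0 by limma-voom (11.4% at an unadjusted p under 0.05) and 0 to 155 with a library left out (155 without WT replicate 3, 3 without KO replicate 2, 1 without WT replicate 2, and 0 without KO replicate 1 or WT replicate 1). The cause was not tested. Substrate genes at an unadjusted p under 0.05 numbered 2 of 19, and 0 to 6 over the alternatives. There were 6 of 19 by DESeq2 and 0 of 19 with library size alone, beside 10.9% of all genes in each. Counts for the genes of activation, inhibition and clearance ranged from 1 to 4.

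Replicates 1 to 3 carry the same numbers in both genotypes, but same-numbered libraries did not deviate together (correlations of -0.10, -0.06 and -0.12), so the numbers are not taken as pairs. With the replicate number as a block edgeR called 0 genes (9.89% at an unadjusted p under 0.05) and 0 members, and 3 members had an unadjusted p under 0.05. The lowest member count was 72, for Adamts8 in WT replicate 1.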
